A study of Mus musculus with 2 samples.

Results

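Colon blood endothelial cells were taken as all cells of the colon library that the authors labelled CapECs (45 cells), ArtECs (4 cells) or VenECs (4 cells), read here as capillary, arterial and venous endothelial cells. Lymphatic endothelial cells (LECs, 217 cells) were left out. The blood endothelial labels covered 53 of 6018 colon cells (0.881%, exact Clopper-Pearson 95% interval 0.660 to 1.15%), of 15377 cells in the series. The cells came from the colon of healthy mice that had no treatment, as live stroma sorted to lack Epcam and CD45 after a 60 minute digestion, and read with a droplet 3′ kit (version 3.1). The other library, of the same kind and from the small intestine with a 45 minute digestion, held 524 cells with the label BECs, which the authors did not divide by vessel type. Mouse number, sex, age and strain are not given in the labels. The number of mice behind a library is unknown, and each tissue is 1 library, so no difference below was tested between animals.

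Blood endothelial cells line arteries, capillaries and veins, and share a core of junction and receptor genes with lymphatic endothelium. Gut mucosal capillaries are fenestrated: their pores are bridged by diaphragms built from the Plvap protein, and the cells take up fatty acids and depend on VEGF. Arterial cells carry Notch ligands, and venular cells carry the adhesion molecules by which leukocytes leave the blood.

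The colon table held 16381 genes and 40684070 UMIs, where a UMI marks 1 captured RNA molecule. The 53 cells held 269665 UMIs, with 1602 (lowest), 3821 (median) and 23984 (highest) per cell and a median of 1697 genes. Medians were 4545 UMIs in LECs and 6697 in the CD81- FBs, the most frequent label. Of the 53 cells, 22 held Xist UMIs and no Y-linked ones, and 11 the reverse. Of the 21 cell barcodes that both libraries used, 1 belonged to a colon blood endothelial cell and the small intestinal cell with that barcode was no BEC. Levels are CPM, a gene's pooled UMIs scaled to the total UMIs of the cell type, and all intervals are 95% intervals that cover counting error only.

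Some cells went against their label. The check used 6 markers: Flt1, Plvap, Fabp4, Rgcc, Rbp7 and Cdh5. Their summed UMIs per cell ran from 0 over a median of 51 to 150. At most 1 UMI of all 6 was found in 6 of 53 cells (11.3%, Clopper-Pearson 4.27 to 23.03%), 5 with the capillary and 1 with the venous label, against 2 of 524 small intestinal BECs (0.382%, 0.0463 to 1.37%). The lowest cell above that limit had 2 marker UMIs. Outside the blood endothelial labels, 11 of 5965 colon cells had 10 or more marker UMIs, against 46 of 53 inside. The only cell labelled endoPCs was among the 11.

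Fibroblast genes were carried by 3 cells. Over a list of 10 (Dcn, Col1a1, Col1a2, Col3a1, Lum, Pdgfra, Dpt, Adamdec1, Mfap5 and Col6a1), these cells held 206, 523 and 727 UMIs, and no other blood endothelial cell held more than 6. Together they held 94.4% of the 1542 fibroblast UMIs of the 53 cells. The cell with 727 was the deepest of all, with 23984 UMIs, and had no marker UMI. The other two also carried 74 and 76 marker UMIs. Immune genes, which the CD45 gate should have removed, sat in the low-marker cells: these 6 held 59 of 61 UMIs of an 11-gene immune list. Among these, 1 cell had 66 UMIs of H2-Eb1 and 20 of Il1b, and another 5 each of Ms4a4b and Tcf7. Epithelial genes gave 4 UMIs over the 53 cells, and mesothelial and erythroid genes 0. A doublet caller (Scrublet) marked 1 colon cell, too few to be taken as working, and 3 of these 8 cells were among the 6% of colon cells with the highest doublet score.

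These 8 cells (at most 1 marker UMI, or more than 100 fibroblast UMIs) were chosen after their values were seen. They held 29.2% of all UMIs of the 53. Values below use all 53 labelled cells. Removing the 8 leaves 45 cells (190916 UMIs, from 38 capillary, 4 arterial and 3 venous cells), whose values are given for part of the results only. A value printed without its 45-cell partner may differ from it. Removal raises the CPM of endothelial genes, since the total falls.

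**Figure D1:**
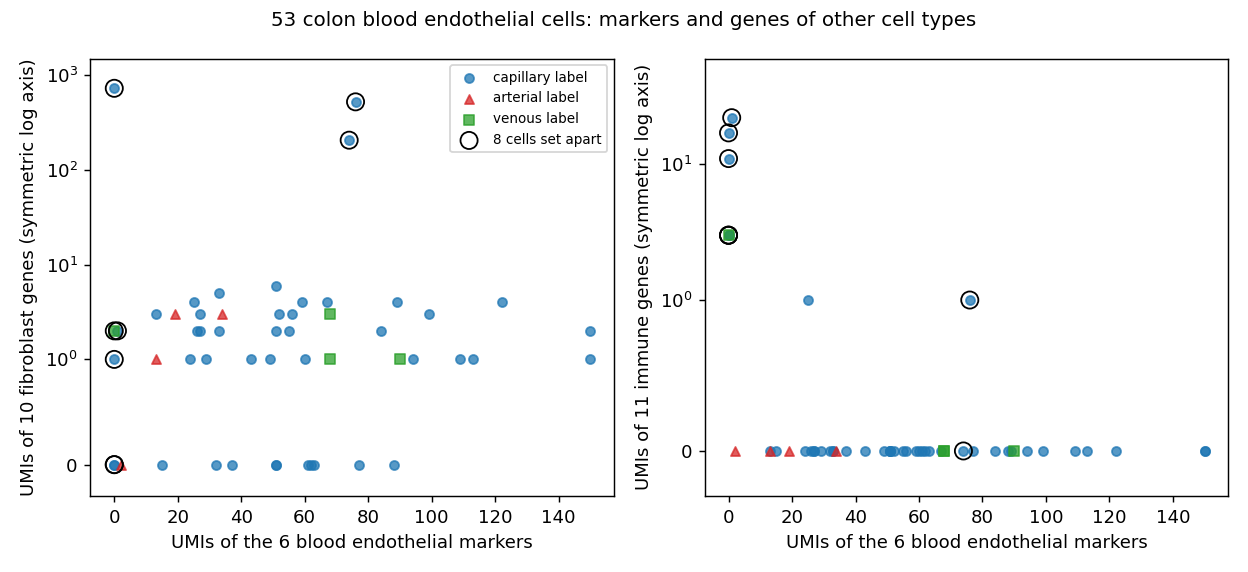
Each point is 1 of the 53 colon blood endothelial cells. The x axis is its UMIs of the 6 markers and the y axis its UMIs of the 10 fibroblast genes (left) or the 11 immune genes (right), on a symmetric log axis. Circles mark the 8 cells set apart: 3 with over 100 fibroblast UMIs, and 6 at or near 0 markers, with 1 cell in both sets.

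Single cells also weigh by depth. The deepest cell held 8.89% of the UMIs, where equal shares would give 1.89%. The 5 deepest held 28.0%, the 10 deepest 41.2%, and 14 cells held 50%. Weighted by depth, the 53 cells counted as 33.1 equal ones. Genes differed in how far 1 cell set their level. Among 2291 genes with at least 20 blood endothelial UMIs, the top cell held a median of 13.0% of a gene's UMIs. It held more than 50% for 49 genes (2.14% of 2291), and more than 25% for 233 (10.2%).

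The 10 with the most UMIs among those 49 were Col3a1, Lgals1, Ifi27l2a, Fbln1, Bgn, Cd63, Col1a1, Cd74, Ecm1 and H2-Ab1. Col3a1, a fibrillar collagen chain, had 294 UMIs in 16 cells, 55.8% of them in 1 cell. H2-Ab1, a chain of MHC class II, had 83 UMIs, 68.7% in 1 cell. The endothelial markers were spread more evenly: the top cell held 5.26% of Plvap, 7.13% of Flt1 and 8.91% of Fabp4.

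Of the 6 markers, Fabp4, an intracellular fatty acid carrier, gave the most UMIs, at 4202 CPM (exact Poisson interval 3960 to 4453). It ran from 0 over a median of 16 to 101 UMIs per cell, in 45 of 53 cells. Flt1, VEGF receptor 1, stood at 2600 CPM (2411 to 2799), in 47 cells, with a median of 10 UMIs. Plvap, the diaphragm protein, stood at 2043 CPM (1876 to 2221), in 45 cells, with a median of 8. Of the 45 cells left after the check, 45 held Flt1, 43 Fabp4 and 43 Plvap. The check kept only cells with over 1 UMI of these 6 markers, so these counts follow in part from it.

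Cdh5, the VE-cadherin of endothelial junctions, had 404 CPM in 38 cells. Rgcc, a regulator of cell cycle entry in endothelium, had 679 CPM in 38 cells, with a median of 2 UMIs. Rbp7, a retinol-binding protein, had 352 CPM in 25 cells, with a median of 0. LECs held Rbp7 too, at 162 CPM and in 41.0% of cells, against 47.2% of the blood endothelial cells. Shares of cells with a UMI were 88.7% for Flt1, 84.9% for Fabp4 and 84.9% for Plvap, against 0.468%, 0.689% and 5.59% of the CD81- FBs, which should lack them and are deeper (median 6697 against 3821 UMIs). Thinned to 2000 UMIs per cell (50 cells, 3 shallower ones left out), the blood endothelial shares were 85.8%, 84.7% and 84.6%. For Cdh5 the thinned share was 54.6%, against 50.9% of LECs, so Cdh5 hardly set the 2 endothelial types apart.

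Promoters are shown for the 3 markers with an entry in the RefSeq promoter table, since these genes were used to check the labels. Each run is the 250 bases before the start of the gene, read 5′ to 3′ on the gene's own strand, build GRCm38.p6. Capitals mark AGGAAG or its reverse CTTCCT, a core letter run of sites bound by ETS factors such as Erg and Fli1, searched on both strands. Flt1 lies at chr5:147726012-147726261, minus strand, Rgcc at chr14:79301636-79301885, minus strand, and Rbp7 at chr4:149454969-149455218, minus strand. Plvap, Fabp4 and Cdh5 had no entry.
Flt1: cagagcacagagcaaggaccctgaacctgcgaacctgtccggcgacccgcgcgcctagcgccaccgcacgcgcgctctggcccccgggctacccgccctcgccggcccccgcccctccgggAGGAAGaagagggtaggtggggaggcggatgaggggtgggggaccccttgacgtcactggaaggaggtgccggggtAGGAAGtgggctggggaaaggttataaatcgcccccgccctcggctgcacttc
Rgcc: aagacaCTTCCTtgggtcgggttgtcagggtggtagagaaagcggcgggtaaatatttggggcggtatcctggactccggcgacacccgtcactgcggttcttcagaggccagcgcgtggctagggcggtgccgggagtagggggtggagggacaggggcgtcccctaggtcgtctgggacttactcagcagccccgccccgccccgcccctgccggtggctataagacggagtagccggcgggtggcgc
Rbp7: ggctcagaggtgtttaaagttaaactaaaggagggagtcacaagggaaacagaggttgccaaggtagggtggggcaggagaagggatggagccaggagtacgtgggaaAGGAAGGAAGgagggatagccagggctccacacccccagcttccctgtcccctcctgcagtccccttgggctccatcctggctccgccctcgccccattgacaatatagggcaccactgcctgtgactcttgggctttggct

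Flt1 had 2 matches, Rgcc 1, and Rbp7 2 that overlap. Of the 25 leading genes described next, 15 had an entry, some with several promoters, 20 in all. The letters were in 11 of these 20, and in 29.5% of all 32851 promoters of the same length. GATAA or TTATC was in 4 of the 20 and 22.6% of all promoters, and ACAAT or ATTGT in 5 of the 20 and 27.7%. A match is a run of letters and not a measured site.

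Against all other colon cells, 2235 of 15138 genes with at least 20 UMIs (14.8%) were at least 2-fold higher in the blood endothelial cells and 1963 (13%) at least 2-fold lower. The labels were made from these same cells, so this contrast describes them and cannot test them. The 25 leading genes, ranked after adding 10 CPM to both sides, ran from a log2 ratio of 5.20 (Emcn) to 9.94 (Sox17), and all 25 stayed at least 2-fold higher with 45 cells. LECs were the next highest of 6 colon types for 18 of the 25. The 6 types leave out the small labels Proliferating (4 cells), ecmPCs (5), myPCs (2) and endoPCs (1), which count among the other colon cells. Among the 2291 genes with at least 20 blood endothelial UMIs, 824 (36%) had their highest level of the 6 types in the blood endothelial cells.

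Among the receptors of this list, Flt1 had a log2 ratio of 9.38 (9.13 to 9.64) over other colon cells. Kdr, VEGF receptor 2 and the main signalling receptor of the family, had 920 CPM in 43 cells, against 624 in LECs. Flt1 and Kdr thus differed in where else they stood: Flt1 was at 3.75 CPM in LECs. Cd93, a surface glycoprotein of endothelium, had 297 CPM against 24.4 in LECs. Ptprb, the phosphatase VE-PTP that acts on the angiopoietin receptor, had 797 CPM against 179. Adgrl4 and Adgrf5 are adhesion G protein-coupled receptors of endothelium. They had 486 and 530 CPM, against 125 and 304 in LECs.

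Surface and junction genes came next. Pecam1, the adhesion molecule CD31, was in 49 of 53 cells at 942 CPM, against 582 in LECs. Podxl and Emcn, mucin-like proteins of the luminal face, stood at 634 and 693 CPM, against 411 and 669 in LECs. Emcn therefore set blood endothelium apart from stroma and hardly from lymphatic cells. Esam, a junction protein, had 445 CPM, and its next highest type was SMCs at 104. Egfl7, a secreted endothelial factor, had 608 CPM against 447 in LECs.

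Transporters, carriers and transcription factors completed the list. Slco2a1, a prostaglandin transporter, had 460 CPM against 5.63 in LECs. Fabp5, another fatty acid carrier, had 345 against 2.82. Sox17, a transcription factor of arterial endothelium, had 267 CPM in 27 cells and no UMI in LECs. Its highest level among the 5 other types was 0.538 CPM. Mecom, also a transcription factor, had 389 CPM and at most 1.88 elsewhere among the 5 other types. The remaining genes were Cyyr1, Srgn, Apold1, Plscr2, Mctp1, Rbp7 and Pcdh17, from 263 CPM (Plscr2) to 664 CPM (Cyyr1). Srgn, the core protein of secretory granule proteoglycans, is also abundant in immune cells: it had 604 CPM with 53 cells and 597 with 45, while Flt1 went from 2600 to 3515.

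**Figure D2:**
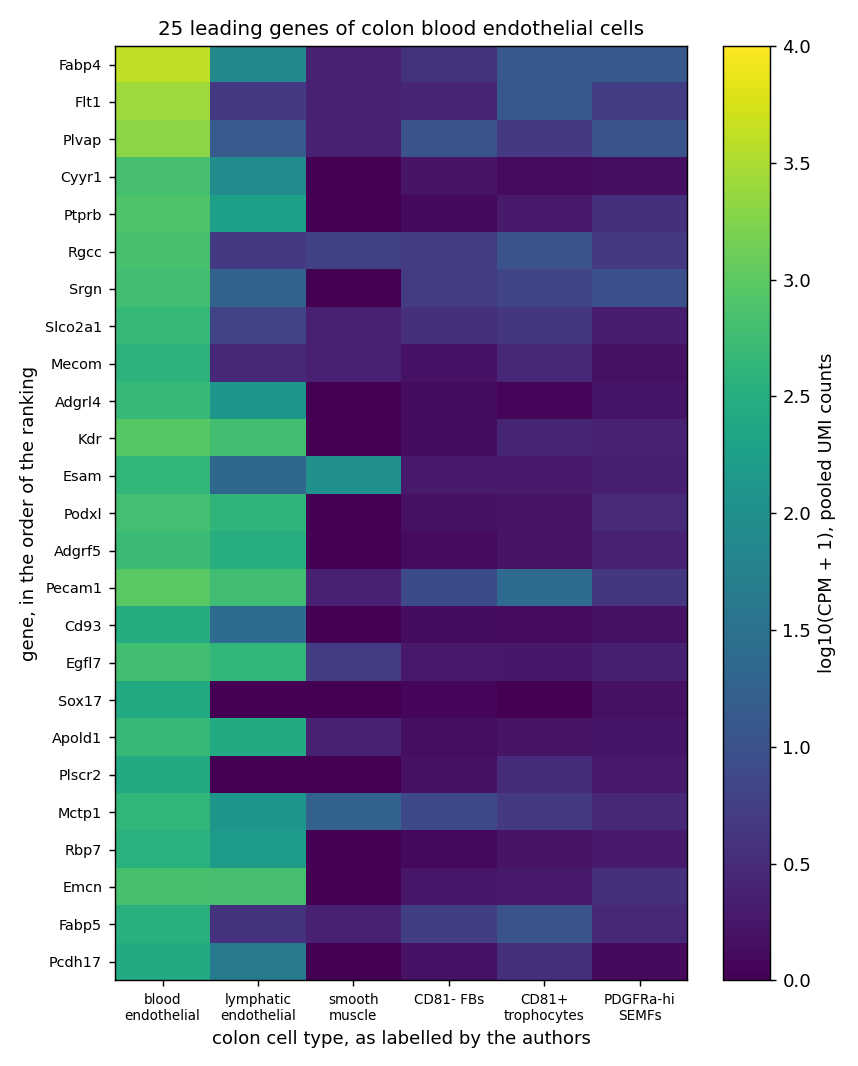
Levels of the 25 leading genes (rows) in 6 colon cell types (columns), as log10(CPM + 1) of pooled UMIs. The blood endothelial column is the brightest in every row. Kdr, Podxl, Pecam1, Egfl7 and Emcn are nearly as bright in lymphatic cells, while Flt1, Rgcc, Mecom, Slco2a1, Sox17, Plscr2 and Fabp5 are dark there.

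Among capillary cells the 15-gene capillary list held a median of 136 UMIs per 10000 UMIs of the cell, against 45.8 in the 4 arterial and 55.0 in the 4 venous cells. The arterial list of 19 genes stood at 35.9, 90.4 and 19.6 in capillary, arterial and venous cells, and the venous list of 13 at 5.84, 4.92 and 56.0. The labels come from the same counts, so these are descriptions. Of the venous cells, 1 had 3.21 on the venous list. It is the low-marker cell, and without it the 3 venous cells ranged from 52.7 to 82.2, all above the highest capillary cell (35.2). On the arterial list the 4 arterial cells (65.4 to 155) overlapped with the capillary cells, whose highest value was 96.9.

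Among the vessel labels, Cd300lg, a mucin-like receptor, and Car4, a carbonic anhydrase of capillary surfaces, had UMIs in capillary cells only. These were 78 in 26 cells and 39 in 16. Gpihbp1, which carries lipoprotein lipase to the capillary lumen, had 26 UMIs, in 9 capillary cells, 38.5% of them in 1. LECs, outside these labels, held all of these genes too. Thinned to 2000 UMIs per cell, 46.4% of LECs held Gpihbp1, against 12.5% of the blood endothelial cells. The thinned shares were 29.8% against 38.6% for Cd300lg and 3.94% against 18.5% for Car4. With 4 cells per group, no UMI in the arterial label allows up to 162 CPM and in the venous label up to 125 CPM (3 counts). Rgcc stood at 797 CPM in capillary and 108 in arterial cells. Cxcl12, a chemokine, stood at 2029 CPM in capillary cells (1848 to 2223), against 324 (119 to 706) in arterial and 41.7 (1.05 to 232) in venous cells.

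Each arterial cell held Sema3g, a semaphorin of arterial endothelium, with 3, 1, 3 and 8 UMIs. Clu, a secreted chaperone, had 10, 2, 3 and 5. Gja4, the gap junction protein connexin 37, had 2, 2, 1 and 3. Jag1, a Notch ligand, had 5, 0, 1 and 8. The venous cells held no UMI of Sema3g, Clu or Gja4, while some capillary cells did: 12 UMIs of Sema3g in 6 cells, 41 of Clu in 16 and 33 of Gja4 in 15. Ackr1, the atypical chemokine receptor of venules, had 3, 8, 0 and 8 UMIs in the venous cells and none in the remaining cells. Selp, P-selectin, had 4, 1, 0 and 22, and none elsewhere. Aqp1, a water channel, sat in 2 venous cells with 15 and 13 UMIs and in 1 arterial cell with 1, and no capillary cell held it although the capillary list includes it. In each set the cell at 0 for Ackr1 and Selp is the low-marker venous cell. The venous values thus rest on 3 cells, and 1 of them held 81.5% of the Selp UMIs.

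**Figure D3:**
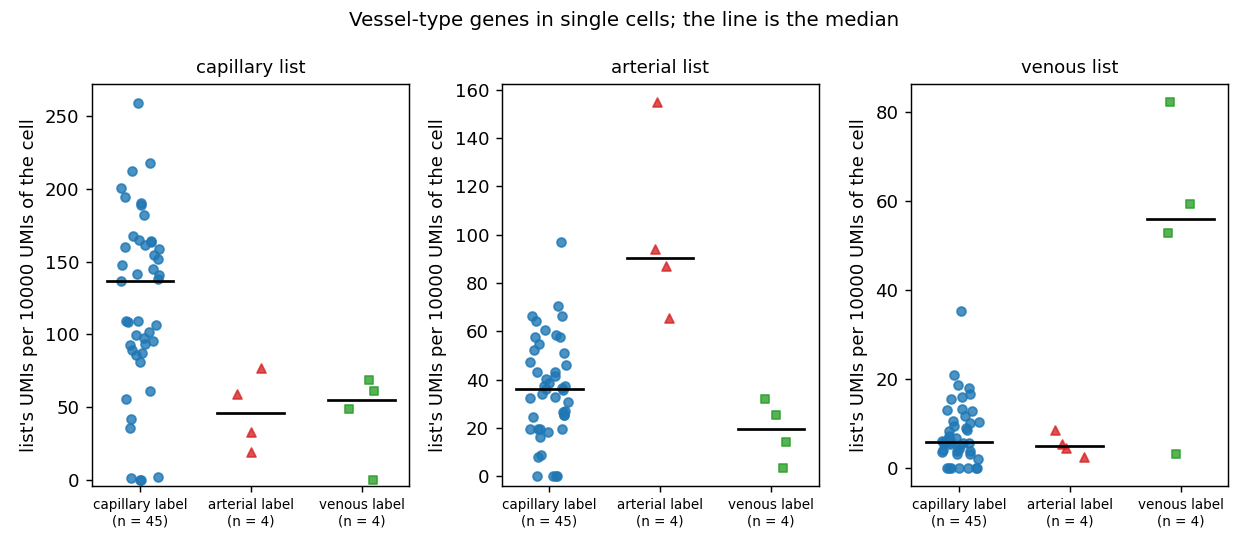
Points are single cells, grouped by vessel label; the y axis is the UMIs of the capillary (left), arterial (middle) or venous list (right) per 10000 UMIs of the cell, and the line is the median. The medians on the capillary list are 136, 45.8 and 55.0, on the arterial list 35.9, 90.4 and 19.6, and on the venous list 5.84, 4.92 and 56.0.

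Compared with LECs of the same library, 855 of 7481 genes (11.4%) were at least 2-fold higher in blood endothelial cells and 1191 (15.9%) at least 2-fold lower. With 45 cells the shares were 11.5% and 20.3% of 7208. All 10 genes of the lymphatic list were at least 2-fold lower. Lyve1, a hyaluronan receptor, Mmrn1, Reln and Nts had no UMI in the 53 cells, against 3462, 5104, 1399 and 78.8 CPM in LECs. The 3-count floor puts the log2 ratios at or below -8.28, -8.84, -6.97 and -2.83. Prox1, the transcription factor that specifies lymphatic endothelium, had 1 UMI against 473 CPM in LECs, and Flt4, VEGF receptor 3, had 5 UMIs against 653 CPM. Ccl21a, a chemokine with near-identical gene copies whose reads the counting may split, had 2 UMIs against 12171 CPM. The defining genes of lymphatic cells were thus at or near 0 in the labelled blood endothelial cells.

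On the other side stood Flt1, Plvap, Rgcc, Fabp4, Mecom, Slco2a1, Sox17, Fabp5, Plscr2 and Srgn from above, with Ly6c1, Ly6a, Plcb1, Scarb1 and Tcim. Flt1 had a log2 ratio of 9.44 (8.07 to 11.32) over LECs. Scarb1, the receptor for high density lipoprotein, had 256 CPM in 35 cells, against 1 UMI in LECs, a log2 ratio of 8.09 (5.56 to 13.41). Ly6c1 and Ly6a are surface proteins of the Ly6 family; Ly6c1 has a near-identical copy, Ly6c2, so its count is uncertain. They had 1843 and 1650 CPM, against 8.45 and 57.3 in LECs. Ly6a was also high in CD81+ Trophocytes, at 963 CPM, and its log2 ratio over all other colon cells was 1.51. Plcb1, a phospholipase, had 1290 CPM against 39.4.

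Some genes of general endothelial use were also low against LECs. Cldn5, the tight junction claudin of endothelium, had 26 UMIs in 6 cells, at 96.4 CPM, against 1048 in LECs, a log2 ratio of -3.44 (-4.06 to -2.88). Nr2f2, the transcription factor that specifies veins, had 70.5 CPM against 883 in LECs. Cavin2, a caveolar coat protein, had 489 CPM against 2277. Aqp1 had 108 against 644.

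**Figure D4:**
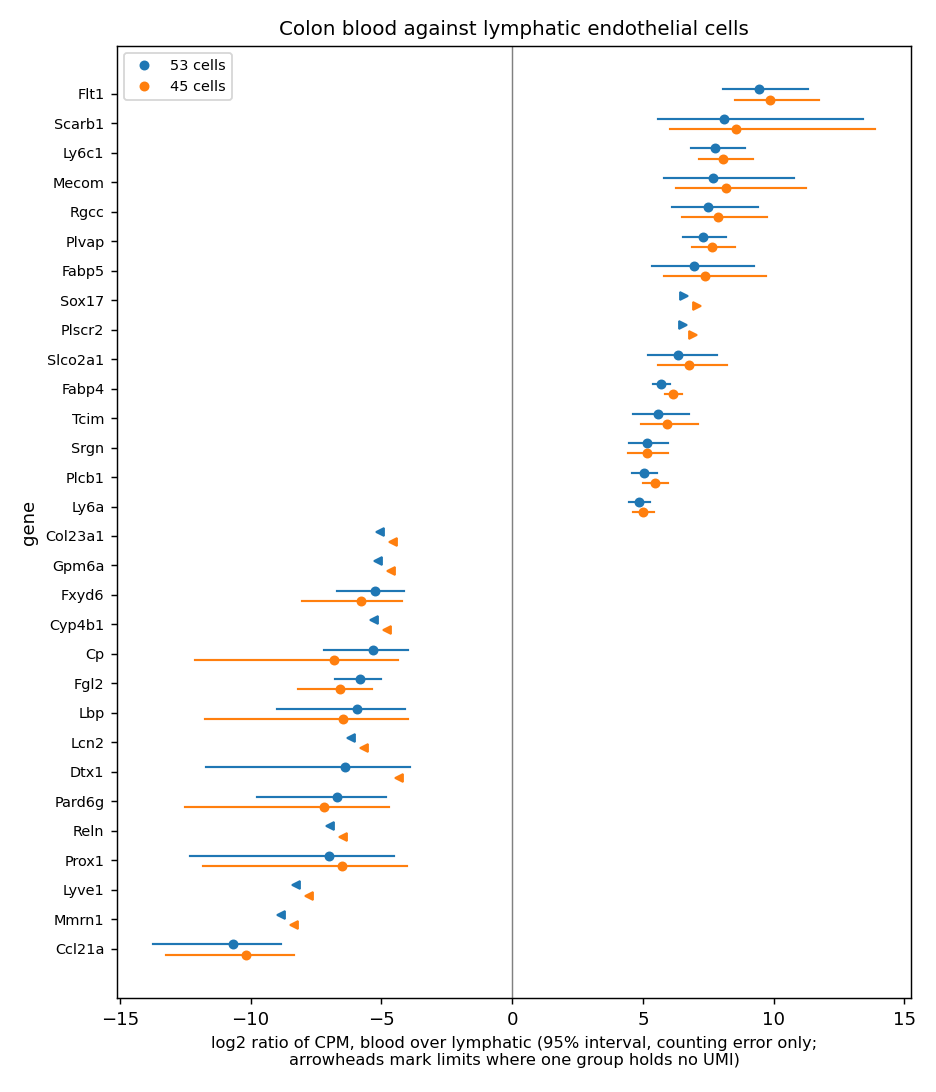
Log2 ratios of CPM (x axis) for the 15 genes highest and the 15 lowest in blood against lymphatic endothelial cells (y axis), with 53 cells (blue) and 45 cells (orange). Lines are 95% intervals from counting error, and arrowheads are limits for genes without a UMI in 1 group. Each gene keeps its side of 0 with both sets of cells.

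The fibroblast and class II lists showed what the 8 cells do. With 53 cells, 6 of 10 fibroblast genes were at least 2-fold higher than in LECs and none lower (median log2 ratio 1.14, against -0.08 over all genes). Over all genes 11.4% were higher and 15.9% lower. With 45 cells none was higher and 9 were lower, at a median of -2.41, beside 11.5% and 20.3% of all genes. The rule that removed the 8 cells used these same 10 genes, so this change follows in part from the rule. Dcn, a proteoglycan of fibroblasts, went from 1895 to 110 CPM. For MHC class II, 5 of 5 genes were higher than in LECs with 53 cells. With 45 cells 0 of 4 were higher and 2 lower, beside the same shares of all genes. Cd74, the class II chaperone, went from 382 to 141 CPM and H2-Aa from 256 to 5.24. The top 2 cells held 82.3% of the 351 class II UMIs.

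In the VEGF and angiopoietin list of 19 genes, 18 could be compared with other colon cells, and 9 were at least 2-fold higher and 4 lower (with 45 cells 9 and 3), beside 14.8% higher and 13% lower over all genes compared. The ligand Vegfa had 6 UMIs, at 22.2 CPM, against 45.0 in other cells, and Angpt1 had 1 UMI against 68.1 CPM. The receptors stood high: besides Flt1 and Kdr, Nrp1, a VEGF co-receptor, had 664 CPM against 185, and Tek, the angiopoietin receptor, 197 against 38.0. Esm1, a proteoglycan of VEGF-stimulated endothelium, had 352 CPM in 18 cells, 33.7% of it in 1 cell. It was at 0 UMIs in LECs, a log2 ratio of at least 6.97. Aplnr, the apelin receptor, had 48.2 CPM, also with no UMI in LECs.

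Of 18 Notch and ephrin genes, 15 were at least 2-fold higher than in other colon cells and 1 lower, with a median log2 ratio of 3.03 (0.07 over all genes, of which 14.8% were higher). Against LECs, 3 of 12 were higher and 2 lower, with a median of 0.31, beside 11.4% and 15.9% of all genes. Dll4, the Notch ligand of sprouting and arterial endothelium, had 133 CPM in 19 cells, against 143 in LECs. Jag2 had 55.6 CPM, against 0.939 in LECs. Notch4, the receptor largely found in endothelium, had 51.9 CPM against 4.69, while Notch1 was lower than in LECs, at 141 against 312. Efnb2, the arterial ephrin, had 174 CPM, and its venous receptor Ephb4 74.2.

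Among 30 endothelial transcription factors, 22 of 29 compared were at least 2-fold higher than in other colon cells and 2 lower, with the same counts for 45 cells, beside 14.8% and 13% of all genes. Against LECs 8 of 28 were higher and 6 lower (median 0.36, 11 and 6 with 45 cells), beside 11.4% and 15.9% of all genes. Against small intestinal BECs none of 29 was higher and 11 were lower (1 and 8 with 45 cells), beside 7.18% and 18.8%. Nr2f2, given above, was among those lower than in LECs. The ETS factors Erg, Fli1 and Ets1 had 148, 263 and 311 CPM. Tcf15, which acts with Meox2 in fatty acid uptake by capillaries, had 145 CPM in 24 cells, against 4.69 in LECs, while Meox2 had 3 UMIs. Epas1, a hypoxia-inducible factor, had 753 CPM against 102 in LECs. Klf2 and Klf4, which respond to flow, had 1817 and 886 CPM, against 477 and 297.

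Of 18 junction genes, 13 were at least 2-fold higher than in other colon cells and none lower (15 and 0 with 45 cells), beside 14.8% and 13% of all genes. Against LECs, 4 of 17 were higher and 2 lower (6 and 1 with 45 cells), beside 11.4% and 15.9% of all genes. Jam2, a junction adhesion molecule, stood out with 226 CPM against 3.75. Of 11 genes for fenestrae, caveolae and transcytosis, 7 were higher than in other colon cells and none lower (7 and 1 with 45 cells). Cav1, the caveolar scaffold, had 742 CPM against 907 in LECs. For leukocyte adhesion and chemokines the counts were 5 higher and 6 lower of 18. Against small intestinal BECs, 1 of 16 in that list was higher and 8 lower, beside 7.18% and 18.8% of all genes.

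For fatty acid handling, 7 of 17 genes were at least 2-fold higher than in other colon cells and 3 lower, beside 14.8% and 13% of all genes. With 45 cells 7 were higher and 4 lower. Cd36, a fatty acid receptor, had 441 CPM in 34 cells, against 16.9 CPM in LECs. Lpl, lipoprotein lipase, had 96.4 CPM from 4 cells, of which 69.2% in 1, and 1 UMI remained with 45 cells. Acsl1, which activates fatty acids, had 3 UMIs, and Angptl4, an inhibitor of lipoprotein lipase, 0.

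The pericyte list summed to 222 CPM, against 675 in SMCs, 272 in PDGFRa-hi SEMFs, 175 in LECs and 30.1 in small intestinal BECs. The colon labels ecmPCs (5 cells), myPCs (2) and endoPCs (1) were not summed for this list. Of its 9 genes, 3 were at least 2-fold higher than in other colon cells and 3 lower (3 and 1 with 45 cells). Over all genes 14.8% were higher and 13% lower. Rgs5 had 42 UMIs in 7 cells (156 CPM, 220 with 45 cells), Pdgfrb had 11 in 3 cells and none with 45, and Cspg4 and Vtn were at 0. In the smooth muscle list, 6 of 8 were lower and none higher, Cnn1 and Actg2 were at 0 and Acta2 had 8 UMIs. Of 27 angiocrine ligands, signals that endothelium can send out, 7 were at least 2-fold higher than in other colon cells and 12 lower. With 45 cells the counts were 7 and 11. Pdgfb, the ligand by which endothelium recruits pericytes, had 211 CPM in 27 cells, against 0.396 in all other colon cells. Kitl, the ligand of Kit, had 404 CPM against 14.1 in LECs. Lama3, a laminin chain, had 148 CPM and no UMI in LECs, and Lama5 63.0, also with none.

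Compared with small intestinal BECs, 661 of 9212 genes (7.18%) were at least 2-fold higher in the colon cells and 1735 (18.8%) at least 2-fold lower. The median over all genes was a log2 ratio of -0.18, and relative to that median 959 were higher and 1367 lower. With 45 cells 6% were higher and 19.2% lower. Over the 2932 genes at a level that gives at least 20 UMIs at the depth of the 53 cells, 7.54% were higher and 18.9% lower. Tissue, library, digestion time and mice cannot be told apart here. Fewer cells of a vessel type and less RNA per cell cannot be told apart either, since the small intestinal label is not divided.

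Venous genes were low in the colon cells. Of 13 in the venous list, 10 were at least 2-fold lower and none higher (median -2.42), and 9 with 45 cells. Over all genes 18.8% were lower and 7.18% higher. Selp had 100 CPM in 3 of 53 colon cells, against 2578 CPM in 37.0% of small intestinal BECs, a log2 ratio of -4.69 (-5.29 to -4.14). Ackr1 had 70.5 CPM against 510 in 32.8% of the small intestinal cells. Lrg1, a secreted glycoprotein, had 44.5 against 432, and Vwf, the von Willebrand factor, 70.5 against 372. In the colon the Selp and Ackr1 UMIs came from 3 cells, all with the venous label.

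Other low genes were Adgrg6, Tll1, Procr, Sulf1, Hdac9, Cldn5, Acer3 and Tmem252, from log2 ratios of -4.46 (Adgrg6) to -2.78 (Tmem252). Procr, the endothelial protein C receptor, had 4 UMIs, at 14.8 CPM, against 245. Cldn5 had 96.4 against 811. Single cells carry much of the colon side, since the top cell held a median of 44.2% of the UMIs of the 10 low genes. All 10 were at least 2-fold lower with 45 cells too. Lymphatic genes were also lower than in the small intestinal BECs, where Ccl21a stood at 416 CPM and Lyve1 at 173, in a library with 2498 LECs. Their part in the tissue difference was not tested.

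Of 15 genes in the capillary list, 7 were at least 2-fold higher and 2 lower (9 and 2 with 45 cells), beside 7.18% and 18.8% of all genes. Rbp7 had 352 CPM in 47.2% of colon cells, against 38.8 CPM in 8.02% of small intestinal ones, a log2 ratio of 3.18 (2.75 to 3.62). Thinned to 2000 UMIs per cell, the shares with a UMI of Rbp7 were 38.2% and 5.13%, against 0.110% of the colon CD81- FBs unthinned. Cd300lg had 289 against 48.4, with a log2 ratio of 2.58 (2.14 to 3.02), and Rgcc 679 against 152, with 2.16 (1.89 to 2.42). Cxcl12 had 1735 against 483. It was also frequent in colon fibroblasts: thinned to 2000 UMIs per cell, 91.4% of the CD81- FBs held it, against 75.5% of the colon blood endothelial cells. Clic5, Tob2, Hspg2, Rdx, Kctd12b, Rflnb and Sparcl1 followed, between 1.08 and 1.53. Hspg2 is perlecan, a proteoglycan of basement membranes, and Rdx links the membrane to actin. With 45 cells all 10 stayed at least 2-fold higher, Tob2 at 1.11 (0.54 to 1.64).

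The 6 markers differed in how they stood between the tissues, with Rbp7 and Rgcc high in the colon as given above. Fabp4 had a log2 ratio of -0.04 (-0.13 to 0.05), or 0.41 (0.32 to 0.50) with 45 cells. Plvap stood at -0.33 (-0.46 to -0.21), or 0.03 with 45 cells. Cdh5 stood at -0.74 (-1.03 to -0.45), or -0.35 with 45 cells. Flt1 was at 0.72 (0.60 to 0.84), or 1.15 (1.03 to 1.27) with 45 cells. Kdr, which is not among the 6, had 920 against 441 CPM, a log2 ratio of 1.06, or 1.43 with 45 cells. In the fibroblast list, 9 of 9 genes were at least 2-fold higher in the colon cells with 53 cells (median 3.25), and 2 of 9 with 45 (median -0.05). Over all genes 7.18% were higher with 53 cells and 6% with 45. When the same rule on cells was applied to the small intestinal BECs as well, leaving 519, 4 of 8 were higher and none lower (median 1.25). The 6 markers and the fibroblast genes also chose the 45 cells, so their shifts follow in part from that choice.

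**Figure D5:**
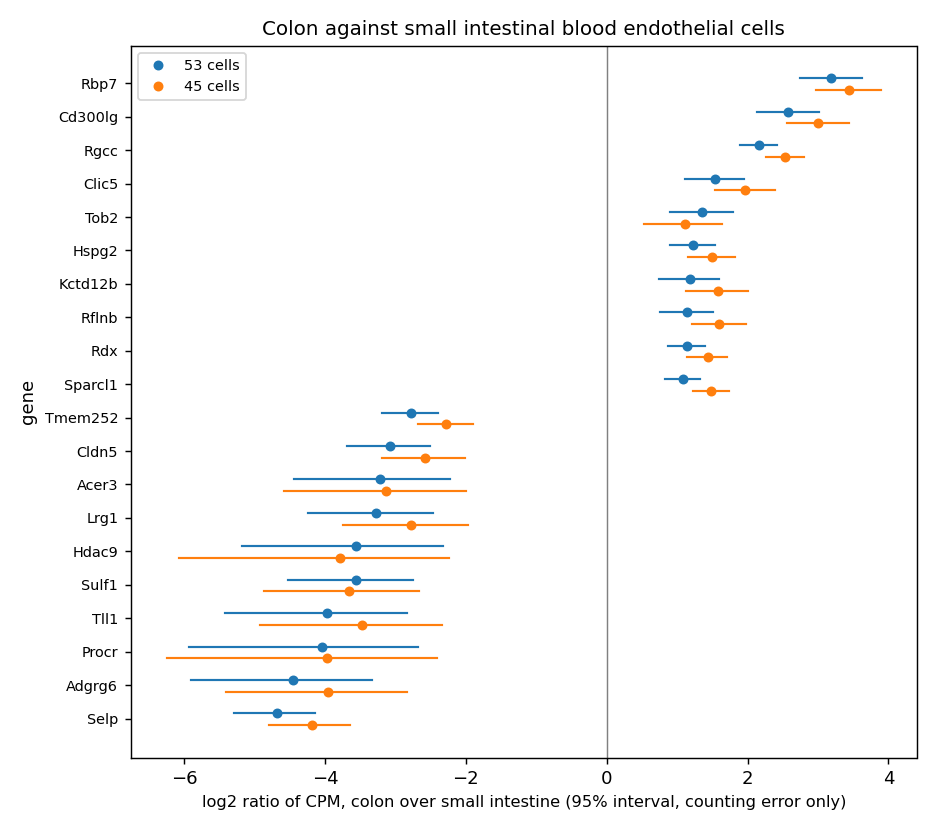
Log2 ratios of CPM, colon over small intestine (x axis), for the 10 genes highest and the 10 lowest in colon against small intestinal blood endothelial cells (y axis), with 53 (blue) and 45 (orange) colon cells. Lines are 95% intervals from counting error. Rbp7 is furthest to the right (3.18) and Selp furthest to the left (-4.69), and each gene keeps its side of 0 with both sets of cells.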

How the data were processed

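The 2 libraries were deposited, each with a table of UMI counts per gene and cell and a table of cell labels; per the labels' protocols, RNA was read with a 3′ droplet kit. Per the submitters' processing notes, Cell Ranger 7.1.0, Seurat 4 and the mm10 build were used; cell filters and any doublet removal are not given in the sources used here. The authors also deposited natural log values (counts scaled to 10000 per cell), used here for an alternative only.

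Counts were summed over the cells of a label and divided by that label's total UMIs (CPM). Ratios are log2 ratios of CPM with exact conditional binomial 95% intervals, levels have exact Poisson intervals, and shares have Clopper-Pearson intervals. A gene was compared with at least 20 UMIs in both groups together and called at a 2-fold difference. With 0 UMIs in a group the ratio is a limit computed with 3 counts over that group. With 1 library per tissue there was no test. Named genes had at least 50 UMIs in the higher group, a UMI in at least 25% of its cells and at most 25% of the UMIs in 1 cell, and were ranked after adding 10 CPM: 25 against other colon cells, 15 in each direction against LECs and 10 in each direction against small intestinal BECs, where the higher group also had to exceed the rest of its own library 2-fold. The rule skipped Y-linked genes, Tsix and Xist, genes of immunoglobulins and haemoglobins, and those of mitochondria and ribosomes. Genes of the lists could be named too, beside the list's count. The members, lists and rules were chosen with earlier results of these data known. The scripts were tested on simulated data. Python 3.11.15, numpy 2.4.6, scipy 1.17.1, pandas 2.3.3, scanpy 1.11.5 (Scrublet) and matplotlib 3.10.9 were used. Alternatives were other minimums, natural log means, left-out cells, cells divided by Xist and Y-linked UMIs, other totals and thinning to 2000 UMIs.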

Additional observations from a re-analysis of the deposited data

How the results depend on the processing

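No paired analysis was possible because each tissue is 1 library with no shared replicate. Among the ratios of the 75 named places, no direction reversed under the alternatives run. Outside them it did: without the 8 cells Plvap went from -0.33 to 0.03 and Fabp4 from -0.04 to 0.41 against small intestinal BECs, and the fibroblast list from a median of 1.14 to -2.41 against LECs. The 8 cells were chosen by these same genes, so these changes follow in part from the choice. Single-gene ratios of the named places kept their size in 621 comparisons and moved in 224, 75 of these on the natural log scale. Natural log values could only be labelled moved or reversed, so these 75 show no change of size. The counts of genes at least 2-fold apart moved more. Leaving out the cell with the most UMIs of each gene gave 1264 higher than in other colon cells (from 2235), 532 higher and 1789 lower than in LECs (from 855 and 1191), and 310 higher than in the small intestine (from 661). Means of the natural log values gave 133, 113, 134, 19 and 45, in the order higher than other colon cells, higher and lower than LECs, higher and lower than small intestinal BECs. A minimum of 100 UMIs gave 1424, 209, 360, 131 and 829. A minimum of 20 UMIs at blood endothelial depth, chosen after seeing the data as was leaving out 8 cells, gave 556, 476, 416, 221 and 554. No minimum gave 2412 higher and 1640 lower than in LECs, and 2540 higher and 1797 lower than in the small intestine. In both, more genes were higher than lower, the reverse of the main counts. The same held against LECs with the minimum at blood endothelial depth (476 and 416). Cells with Y-linked UMIs only gave 353 higher and 680 lower than in LECs, 1107 lower than in the small intestine (from 1735) and a share of 0.628% (from 0.881%), and cells with Xist UMIs only 508 higher than in LECs. These settings also change how many genes or cells are compared. Of 75 named places, 60 were shared with 1 CPM added in the ranking and 58 with 50 CPM. With 53 cells and 269665 UMIs, a gene with no UMI may stand at up to 11.1 CPM (3 counts).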

Other observations

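Immediate early and heat shock genes, which cells can switch on during dissociation, stood apart from LECs of the same digest. LECs were the lowest of the colon types compared: the list summed to 27894 CPM in blood endothelial cells and 10252 in LECs. It summed to 19612 CPM in SMCs and was higher in CD81+ Trophocytes, at 30237. Against all other colon cells 6 of 21 genes were at least 2-fold higher and 1 lower, beside 14.8% and 13% of all genes. Of 21 listed genes, 15 were at least 2-fold higher in the blood endothelial cells than in LECs and none lower (median log2 ratio 1.60; over all genes 11.4% higher and 15.9% lower), and with 45 cells 17 were higher and 1 lower. Fos had 3282 CPM against 709 in LECs. Against small intestinal BECs, digested for 45 and not 60 minutes, 2 were higher and 9 lower, and with 45 cells 4 were higher and 5 lower. Over all genes 7.18% were higher and 18.8% lower, and with 45 cells 6% and 19.2%. The number lower with 45 cells is thus near the share of all genes. Zfp36, which destabilises mRNA, had 831 CPM against 3810, a log2 ratio of -2.20 (-2.40 to -2.01). Hsp90aa1, a chaperone, went the other way, with 1873 against 321 CPM and 2.54 (2.38 to 2.71). Digestion time and tissue cannot be told apart.

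Hox genes, which mark position along the gut, gave 93 UMIs over the list. Their sum was 345 CPM, against 384 in LECs and 275 in CD81- FBs. Of 22 compared with other colon cells, 9 were at least 2-fold higher and 4 lower, beside 14.8% and 13% of all genes. Against small intestinal BECs none of 12 was higher and 4 were lower, beside 7.18% and 18.8%. Hoxb9 had 8 UMIs in 7 cells, against 0.0742 CPM in all other colon cells, a log2 ratio of 8.64 (6.58 to 11.19). Those other cells held 3 UMIs of it. Hoxa9 had 7 UMIs in 7 cells, at 26.0 CPM, against 0.912 CPM in small intestinal BECs, a log2 ratio of 4.83 (2.44 to 8.13). In these comparisons both genes were under the minimum of 20 UMIs for the counts. Hoxa10, with 7 UMIs, was in the colon table only.

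In the basement membrane list, 7 of 14 genes were at least 2-fold higher than in LECs and 3 lower, beside 11.4% and 15.9% of all genes. Igfbp7, a secreted binding protein of vessel walls, had 5418 CPM in 51 of 53 cells against 399 in LECs. It was also high in the CD81- FBs, at 3117 CPM. Entpd1, which breaks down extracellular ATP, had 226 CPM against 1.88 in LECs (2 UMIs), a log2 ratio of 6.91 (5.00 to 9.99). Jam3, a junction adhesion molecule, had 178 against 2.82 (3 UMIs), a log2 ratio of 5.98 (4.35 to 8.31). Edn1, the vasoconstrictor endothelin, had 119 CPM against 300 in small intestinal BECs, a log2 ratio of -1.34 (-1.90 to -0.83).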
